A study of Arabidopsis thaliana with 18 samples.

Results

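The 31 genes described here encode the steps that lead from glutamyl-tRNA to chlorophyll in Arabidopsis thaliana, with the haem and sirohaem branches, the repressor FLU and the enzymes of the chlorophyll cycle. They were chosen as a list of loci in pathway order, from what their products do. No cut-off on their values was used, but earlier results of these data were known by then. The protochlorophyllide oxidoreductases and the haem oxygenases are outside the list. All 31 were found among the 32833 genes of the count table, and all 31 were among the 20955 genes with enough reads to be tested. The series asks what HY1 does when light controls the forming of adventitious roots, which arise from the hypocotyl, the embryonic stem of the seedling. Poly-A RNA was sequenced from hypocotyls of hy1 and of the wild type (WT) at 0 h, 12 h and 24 h of a change from dark to light, with 3 libraries in each of the 6 groups. The hy1 mutant is defective in the plastid haem oxygenase HY1, which opens the haem ring on the way to the phytochrome chromophore, so its phytochromes are impaired. The allele, the accession, the age of the seedlings and the light used are not given in the sources used here. The titles of the WT libraries carry the word mock and those of the hy1 libraries do not, so a treatment that went with the genotype cannot be told apart from it. No library was kept dark for 12 h or 24 h, so light and elapsed time cannot be told apart either.

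Tetrapyrroles are made in plastids. Glutamyl-tRNA is turned into 5-aminolevulinate, and the porphyrin trunk joins and reshapes that building block up to protoporphyrin IX. There the path forks: magnesium chelatase leads to chlorophyll, and ferrochelatase leads to haem. Sirohaem, the cofactor of nitrite and sulphite reductases, leaves the trunk earlier. In dark-grown seedlings the path is held back at 5-aminolevulinate and stops at protochlorophyllide, whose reduction needs light. Free porphyrins are phototoxic, which is why supply and use of the intermediates are known to be kept in step.

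Promoter windows of 5 genes are shown here because these genes carry the results below: GUN5 and CRD1 are the members with the largest rises at 24 h, CAO rose further between 12 h and 24 h, FC2 was lower in hy1 at each time, and NYC1 fell. Each window holds the 250 bases before the gene's start, 5′ to 3′ on the gene's strand, from the RefSeq genome of build TAIR10.1. Capitals mark the G-box CACGTG, a hexamer bound by light-regulated bZIP and bHLH factors, and 2 motifs of the circadian clock, the evening element AAAATATCT and the CCA1-binding site AAAAATCT, each searched on both strands (reverse complements AGATATTTT and AGATTTTT), and none of these motifs contains another.
GUN5 (chr5:4392430-4392679, minus strand): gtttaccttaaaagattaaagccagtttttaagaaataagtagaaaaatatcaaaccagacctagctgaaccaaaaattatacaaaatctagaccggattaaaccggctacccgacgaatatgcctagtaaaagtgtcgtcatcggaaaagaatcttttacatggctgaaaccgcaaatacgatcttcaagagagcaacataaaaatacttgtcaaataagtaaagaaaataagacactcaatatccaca
CRD1 (chr3:21076255-21076504, plus strand): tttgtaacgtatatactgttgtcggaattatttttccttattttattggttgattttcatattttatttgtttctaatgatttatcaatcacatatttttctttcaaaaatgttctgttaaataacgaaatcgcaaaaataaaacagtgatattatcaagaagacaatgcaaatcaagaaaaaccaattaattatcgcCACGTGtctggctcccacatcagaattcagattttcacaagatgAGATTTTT
CAO (chr1:16851272-16851521, minus strand): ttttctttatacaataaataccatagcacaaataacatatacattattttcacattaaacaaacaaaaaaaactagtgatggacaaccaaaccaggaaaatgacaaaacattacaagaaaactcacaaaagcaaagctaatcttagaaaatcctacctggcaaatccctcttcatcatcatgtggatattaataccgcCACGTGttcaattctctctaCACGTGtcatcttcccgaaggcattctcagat
FC2 (chr2:12954149-12954398, minus strand): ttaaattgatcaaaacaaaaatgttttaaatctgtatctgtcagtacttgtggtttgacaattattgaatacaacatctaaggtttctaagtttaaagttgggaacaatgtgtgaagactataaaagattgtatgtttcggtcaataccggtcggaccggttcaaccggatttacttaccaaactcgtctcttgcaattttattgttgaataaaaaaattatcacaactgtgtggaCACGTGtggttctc
NYC1 (chr4:7687007-7687256, minus strand): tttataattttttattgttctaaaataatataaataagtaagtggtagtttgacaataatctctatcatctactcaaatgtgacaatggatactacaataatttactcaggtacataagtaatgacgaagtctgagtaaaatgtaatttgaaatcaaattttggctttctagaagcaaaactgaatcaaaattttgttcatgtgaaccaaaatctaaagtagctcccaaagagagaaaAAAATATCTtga
The G-box stood in the windows of 5 of 31 members (16.1%), namely HEMD, CRD1, CAO, FC2 and NOL, and in 6.5% of 27443 windows of all genes. CAO held 2 copies. The CCA1-binding site was found in 4 members (HEMA2, GUN4, CRD1 and FLU; 12.9% against 6.7% of all windows) and the evening element in NYC1 alone (3.2% against 2.4%). The I-box core GATAAG, searched in both orientations, stood in LIN2 and YCF54 (6.5% against 12.3%). GUN5, which had the highest fold of all members in light against 0 h, held none of these letters in its window.

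Total counts ran from 38469946 to 59905064 per library. HY1 itself had 35.3, 36.3 and 31.6 CPM at 0 h, 24.3, 21.1 and 20.2 CPM at 12 h and 18.4, 19.4 and 19.1 CPM at 24 h in hy1, and 42.4, 44.5 and 47.9 CPM at 0 h, 34, 25.5 and 23.4 CPM at 12 h and 40.5, 43.2 and 33.9 CPM at 24 h in WT. CPM are a library's counts scaled to a common total with TMM factors. The HY1 transcript was thus still present in hy1, and lower than in WT at 0 h and 24 h (log2 difference -0.39 ± 0.13 SE, adjusted p = 0.0411, and -1.05 ± 0.13, adjusted p = 6.63e-05). At 12 h it was -0.34 ± 0.13 (adjusted p = 0.0598), or -0.63 without the 3 libraries named next. Of the WT libraries, replicates 2 and 3 of 12 h and replicate 3 of 24 h stood apart from the rest: they correlated with the others of their groups at r = 0.9475 to 0.9713 over genes, against 0.9781 to 0.9913 elsewhere. Of the 31 genes, 19 were lower in the pair of 12 h than in the remaining WT library of 12 h (median log2 difference -0.06). In the one of 24 h, 25 were lower than in the others of 24 h (median -0.26). Values are therefore also given without them where that changed a call. Those fits leave only replicate 1 of WT at 12 h. WT values of 12 h then rest on that library, with a spread assumed from the other groups. A list of 10 genes of photosystems and carbon fixation summed to 261 to 399 CPM in hy1 and 438 to 731 CPM in WT at 0 h, to 2960 to 3620 and 2100 to 4290 CPM at 12 h, and to 4600 to 5730 and 4230 to 7510 CPM at 24 h. Of 8 root hair and endodermis markers, 6 had a read in hy1 at 12 h (COBL9 and EXPA7 were at 0) and 7 in WT (RHD6 was at 0), and their sums were 273 to 302 CPM in hy1 and 421 to 596 CPM in WT. The sums were 235 to 285 CPM in hy1 and 320 to 394 CPM in WT at 0 h and 70.8 to 84.4 CPM in hy1 and 39.9 to 64.0 CPM in WT at 24 h. Stomatal lineage markers (6 genes, all with a read in each group) summed to 1.22 to 2.15 CPM in hy1 and 3.96 to 7.33 in WT at 0 h, 12.7 to 21.1 and 4.22 to 14.5 at 12 h, and 4.86 to 9.52 and 3.64 to 7.35 at 24 h. Shoot meristem markers (3 genes) summed to 13.97 to 24.1 CPM over the hy1 libraries and 3.24 to 27.5 CPM over the WT libraries, with CLV3 at 0 in hy1 at 0 h and WUS at 0 in WT at 24 h. No marker list that defines the hypocotyl was used. The part of such tissue in the results below was not tested. In these bulk samples, fewer cells of a type and less RNA per cell cannot be told apart.

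Most of the pathway rose after the change to light in both genotypes. Differences were tested in 1 edgeR quasi-likelihood model of all 18 libraries, and a gene was called at a Benjamini-Hochberg adjusted p under 0.05 over all genes tested. Log2 differences are given ± SE. In hy1, 24 of 31 members rose and 2 fell at 12 h against 0 h, where 22.9% of all genes tested rose and 21.3% fell (44.2% in all). At 24 h against 0 h, 24 rose and 2 fell in hy1, beside 20.4% and 20.1% of all genes (40.5% in all). In WT, 23 rose and none fell at 12 h, beside 28.3% and 25.3% of all genes (53.6% in all), and 26 rose and 1 fell at 24 h, beside 24.6% and 23.1% (47.7% in all). The 23 include GUN4, whose few reads are treated below. The median log2 difference of the members was 0.92 and 1.24 in hy1 at 12 h and 24 h and 0.95 and 1.41 in WT. The medians of all genes were 0.0098 and -0.0035 in hy1 and 0.01 and 0.02 in WT. The same 19 genes rose in all 4 of these comparisons, and 24 rose in both genotypes at 24 h. Each genotype's 2 comparisons share their 0 h libraries. Summed over the 31 genes, transcripts came to 1218 ± 24.7, 2563 ± 138 and 2724 ± 194 CPM in hy1 at 0 h, 12 h and 24 h (SD, n = 3 each) and to 1182 ± 96.0, 2493 ± 221 and 3395 ± 510.2 CPM in WT. The 12 genes from magnesium chelatase to the end of chlorophyll synthesis made up 22%, 49.6% and 56.2% of that sum in hy1 and 29.2%, 52.5% and 59.4% in WT.

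**Figure D1:**
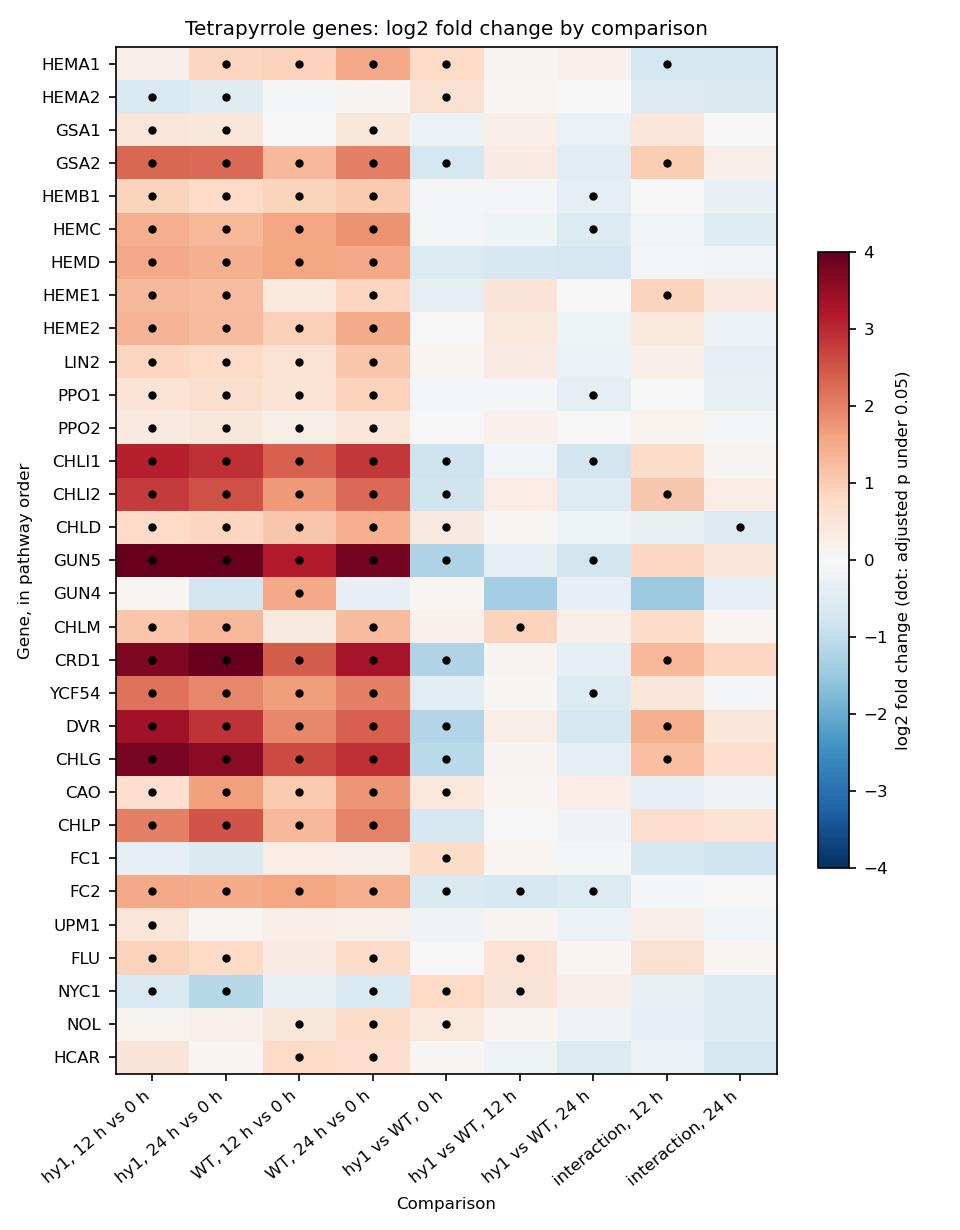
Log2 fold change of each of the 31 genes (rows, in pathway order) in 9 comparisons (columns), from red (higher in the first-named group) to blue (lower), with a dot where the adjusted p was under 0.05. GUN5, CRD1 and CHLG are the darkest red in the 4 light columns, while HEMA2, FC1 and NYC1 are pale or blue there.

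After 12 h fewer members were called than against 0 h, and more of them in WT than in hy1. The median difference between 12 h and 24 h was 0.38 in WT and -0.09 in hy1, beside 0.0004 and -0.02 over all genes. Between 12 h and 24 h, 2 members rose and 1 fell in hy1, beside 2.35% and 2.54% of all genes (4.89% in all), and 6 rose and 1 fell in WT, beside 3.67% and 5.41% (9.08% in all). In hy1 these were HEMA1 and CAO, which rose, and NYC1, which fell. In WT, HEMA1, PPO1, CHLD, CHLM, CRD1 and CAO rose and GUN4 fell, the last on few reads. CAO was called in both genotypes, and in every alternative for hy1. The WT count was 1 (CAO) without the 3 libraries that stood apart, 18 without WT 12 h replicate 1, 17 without WT 24 h replicate 3, and 4, 3, 4 and 2 without WT 12 h replicates 2 and 3 and WT 24 h replicates 1 and 2. In hy1 it was 1 without 12 h replicate 3, 24 h replicate 1 or 24 h replicate 2, beside 2.87%, 2.46% and 2.75%.

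At the entry to the pathway, the 2 genes of glutamyl-tRNA reductase behaved differently. This enzyme is the main control point of 5-aminolevulinate supply, and HEMA1 (AT1G58290) is the copy known from green tissue. HEMA1 was at 56.6, 67.4 and 84.6 CPM at 0 h, 78.6, 85.8 and 79.7 CPM at 12 h and 132, 134 and 116 CPM at 24 h in hy1. Its WT libraries had 41.4, 35.7 and 42.4 CPM at 0 h, 74.99, 80.9 and 69.8 CPM at 12 h and 104, 142 and 94.6 CPM at 24 h. The lowest hy1 library of 0 h lay above the highest WT library of 0 h, and at 12 h and 24 h the genotypes overlapped. HEMA1 rose by 24 h in hy1 (0.87 ± 0.15, adjusted p = 0.00029) and in WT (1.51 ± 0.16, adjusted p = 9.66e-07). At 12 h it was 0.23 ± 0.15 in hy1 (adjusted p = 0.252) and rose in WT (0.92 ± 0.15, adjusted p = 0.000136). HEMA2 (AT1G09940), the copy better known from roots, fell in hy1. It was at 36.5, 38.3 and 50.5 CPM at 0 h, 26.7, 28.9 and 27.4 CPM at 12 h and 32.2, 30.7 and 27.2 CPM at 24 h in hy1, and 29.5, 26.5 and 26.6 CPM at 0 h, 23.5, 28.1 and 29.1 CPM at 12 h and 24.9, 30.1 and 33.2 CPM at 24 h in WT. Thus the hy1 libraries of 0 h stood above the other 15. HEMA2 fell in hy1 at 12 h (-0.59 ± 0.13, adjusted p = 0.00193) and 24 h (-0.47 ± 0.13, adjusted p = 0.00991). In WT its differences were -0.03 ± 0.13 and 0.09 ± 0.13 (adjusted p = 0.851 and 0.592).

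Glutamate-1-semialdehyde aminotransferase, the enzyme that completes 5-aminolevulinate, is encoded by GSA1 (AT5G63570) and GSA2 (AT3G48730), and the rarer GSA2 changed more. GSA2 was at 13.1, 10.5 and 11.6 CPM at 0 h, 58.6, 56.9 and 59.1 CPM at 12 h and 49.6, 64.9 and 53.2 CPM at 24 h in hy1. WT had 22, 17.9 and 16.9 CPM at 0 h, 61.5, 43.8 and 33.5 CPM at 12 h and 88.99, 92.8 and 49.1 CPM at 24 h. The 3 WT libraries that stood apart held the lowest WT values of their times. GSA2 rose in hy1 by 2.31 ± 0.24 and 2.25 ± 0.24 at 12 h and 24 h, and in WT by 1.29 ± 0.23 and 2.02 ± 0.23 (adjusted p from 1.1e-06 to 0.000225). GSA1 had 74.2, 67.5 and 71.7 CPM at 0 h, 105, 102 and 90.4 CPM at 12 h and 95, 104 and 91.2 CPM at 24 h in hy1, and 90.3, 80.9 and 81.3 CPM at 0 h, 105, 68.3 and 76.7 CPM at 12 h and 128, 134 and 86.3 CPM at 24 h in WT. Its WT libraries spread widely in light, from 68.3 to 105 CPM at 12 h. GSA1 rose in hy1 at both times (0.48 ± 0.16, adjusted p = 0.0239, and 0.44 ± 0.16, adjusted p = 0.0391) and in WT at 24 h (0.46 ± 0.16, adjusted p = 0.0269), where the libraries of 24 h and 0 h overlapped and the call was lost in 6 of 17 alternatives. Without the 3 libraries that stood apart the WT difference at 24 h was 0.64 (adjusted p = 1.05e-05). In WT at 12 h it was -0.01 ± 0.16 (adjusted p = 0.954), and without those 3 libraries it was 0.32.

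The porphyrin trunk rose as a block, by moderate amounts. All 8 genes rose in hy1 at both times (median log2 difference 1.1 at 12 h and 1.01 at 24 h), and 7 of 8 at 12 h (0.74) and all 8 at 24 h (1.08) rose in WT. Without the 3 libraries that stood apart, the WT differences at 12 h were 0.81 for HEMD, 0.98 for LIN2 and 0.46 for PPO2, against 1.59, 0.59 and 0.25 with all libraries. The genes that follow 5-aminolevulinate are HEMB1 (AT1G69740), which condenses it to porphobilinogen, HEMC (AT5G08280), which links porphobilinogen into a chain, and HEMD (AT2G26540), which closes the ring. HEMB1 averaged 57.2 ± 0.318, 107 ± 5.003 and 97.8 ± 4.11 CPM in hy1 at 0 h, 12 h and 24 h and 60.4 ± 2.54, 111 ± 6.64 and 126 ± 6.62 CPM in WT (SD, n = 3 each). HEMC averaged 34.6 ± 1.09, 95.3 ± 8.45 and 86.9 ± 8.87 CPM in hy1 and 36.2 ± 4.23, 108 ± 15.6 and 126 ± 8.85 CPM in WT. HEMD was the least abundant of the trunk, at 3.55 ± 0.559, 10.12 ± 2.29 and 9.43 ± 0.965 CPM in hy1 and 5.19 ± 0.561, 15.6 ± 6.59 and 14.99 ± 4.42 CPM in WT. Of these 3, HEMC had the highest fold at 24 h in WT (1.80 ± 0.12, adjusted p = 1e-08) and HEMD in hy1 (1.41 ± 0.28, adjusted p = 0.000807), a difference within their errors in hy1.

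HEME1 (AT3G14930) and HEME2 (AT2G40490) encode uroporphyrinogen III decarboxylase, the step after the sirohaem branch point. HEME1 was at 14.4, 15.4 and 13.6 CPM at 0 h, 33.6, 35.6 and 36.8 CPM at 12 h and 29.8, 39.3 and 33.6 CPM at 24 h in hy1, and 20.7, 17.9 and 17.3 CPM at 0 h, 29.1, 27.2 and 17.98 CPM at 12 h and 36.6, 41.7 and 22.6 CPM at 24 h in WT. At 12 h each hy1 library stood above the WT ones, of which replicate 3 was lowest, but the difference between genotypes was not called. HEME2 had 21.3, 19.8 and 22.4 CPM at 0 h, 50.7, 56.8 and 56.5 CPM at 12 h and 43.8, 57.5 and 52.4 CPM at 24 h in hy1, and 22.9, 19.9 and 20.5 CPM at 0 h, 52.05, 41.5 and 28.8 CPM at 12 h and 64.8, 74.1 and 40.1 CPM at 24 h in WT. WT 12 h replicate 3 and WT 24 h replicate 3 were again the lowest of their groups. Both rose in each light comparison except HEME1 in WT at 12 h (0.41 ± 0.20, adjusted p = 0.0947, or 0.64 without the 3 libraries that stood apart). Their rises ran from 0.85 to 1.5. LIN2 (AT1G03475), the coproporphyrinogen III oxidase, averaged 51.6 ± 2.43, 93.5 ± 1.91 and 87.7 ± 4.33 CPM in hy1 and 49 ± 4.11, 73.9 ± 19.8 and 105 ± 23.3 CPM in WT.

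PPO1 (AT4G01690) and PPO2 (AT5G14220) encode protoporphyrinogen oxidase, which makes protoporphyrin IX for both branches, and PPO2 had the smallest fold of the trunk in each light comparison. PPO1 was at 45.9, 43.2 and 42.4 CPM at 0 h, 59.4, 64.98 and 66.7 CPM at 12 h and 66.7, 70.7 and 66.8 CPM at 24 h in hy1, and 47.7, 45.8 and 43.3 CPM at 0 h, 68.98, 59 and 73.3 CPM at 12 h and 84.9, 92.8 and 84.3 CPM at 24 h in WT. At 24 h all WT libraries lay above all hy1 libraries. PPO2 was at 19.3, 20.1 and 21.6 CPM at 0 h, 25.7, 28.01 and 26.9 CPM at 12 h and 27.98, 26.8 and 27.98 CPM at 24 h in hy1, and 20.4, 19.5 and 20.3 CPM at 0 h, 27.5, 22.3 and 21.7 CPM at 12 h and 29.1, 29.8 and 24.7 CPM at 24 h in WT. PPO1 rose by 0.63 ± 0.09 in hy1 and 0.94 ± 0.09 in WT at 24 h (adjusted p = 3.46e-05 and 4.12e-07), and PPO2 by 0.44 ± 0.10 and 0.48 ± 0.10 (adjusted p = 0.00241 and 0.00101). PPO2 in WT at 12 h (0.25 ± 0.10, adjusted p = 0.0478) was no longer called in 13 of 17 alternatives.

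The magnesium branch held the largest single rise, that of GUN5 (AT5G13630). Of its 9 genes, 8 rose in each of the 4 light comparisons, with a median log2 difference of 2.79 and 2.56 in hy1 at 12 h and 24 h and 1.70 and 2.27 in WT. The gene not called was CHLM (AT4G25080) in WT at 12 h and GUN4 (AT3G59400), whose counts are treated separately below, in the others. The 8 of WT at 12 h thus include GUN4, a call that rests on few reads. Magnesium chelatase, which commits protoporphyrin IX to chlorophyll, consists of subunit I, made by CHLI1 (AT4G18480) and CHLI2 (AT5G45930), subunit D, made by CHLD (AT1G08520), and subunit H, which is GUN5. GUN5 binds the porphyrin and is known for its part in plastid-to-nucleus signalling. GUN5 was at 26.9, 22.5 and 17.9 CPM at 0 h, 334, 388 and 368 CPM at 12 h and 409.6, 499 and 417 CPM at 24 h in hy1. The WT libraries had 62.8, 37.5 and 56.9 CPM at 0 h, 540, 454 and 434 CPM at 12 h and 744, 884 and 582 CPM at 24 h. The genotypes did not overlap at any time, with hy1 the lower, and the difference was called at 0 h and 24 h but not at 12 h. GUN5 rose by 4.02 ± 0.22 and 4.30 ± 0.22 in hy1 and by 3.18 ± 0.21 and 3.81 ± 0.22 in WT at 12 h and 24 h, the largest rise of any member in each of these comparisons (adjusted p from 9.7e-10 to 8.06e-09).

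CHLI1 rose as well, at lower levels. Its levels were 14.7, 11.7 and 10.2 CPM at 0 h, 88.3, 103 and 122 CPM at 12 h and 78.95, 104 and 94.98 CPM at 24 h in hy1, and 28.7, 18.3 and 17.8 CPM at 0 h, 83.5, 136 and 117 CPM at 12 h and 135, 154 and 169.6 CPM at 24 h in WT. CHLI2 was far rarer, at 1.68, 2.63 and 1.59 CPM at 0 h, 12.9, 13.5 and 14.4 CPM at 12 h and 10.4, 12.9 and 11.5 CPM at 24 h in hy1, and 4.66, 2.897 and 2.67 CPM at 0 h, 12.6, 11.9 and 8.81 CPM at 12 h and 18.9, 18.4 and 12.03 CPM at 24 h in WT. At 0 h all WT libraries of both genes lay above those of hy1. CHLI1 rose by 3.10 ± 0.23 and 2.93 ± 0.23 in hy1 and 2.38 ± 0.22 and 2.82 ± 0.22 in WT, and CHLI2 by 2.79 ± 0.25 and 2.56 ± 0.25 in hy1 and 1.70 ± 0.24 and 2.27 ± 0.24 in WT (adjusted p from 3.35e-08 to 2.47e-05). CHLD, the third kind of subunit, changed less and started higher. It was at 71.1, 71.5 and 67.3 CPM at 0 h, 113, 127 and 121 CPM at 12 h and 126, 136 and 118 CPM at 24 h in hy1, and 57.4, 50.9 and 54.3 CPM at 0 h, 111, 125 and 110.4 CPM at 12 h and 138, 155 and 139.6 CPM at 24 h in WT. Here hy1 was the higher genotype at 0 h without overlap, and at 24 h the lower. The difference between genotypes was called at 0 h and not at 24 h. CHLD rose by 0.86 ± 0.09 in hy1 and 1.41 ± 0.09 in WT at 24 h (adjusted p = 1.58e-06 and 5.58e-09).

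GUN4, which binds porphyrin and stimulates the chelatase, could not be read from these counts. It had 2 to 25 reads per library, or 0.237, 0.0916 and 0.187 CPM at 0 h, 0.129, 0.134 and 0.281 CPM at 12 h and 0.0395, 0.203 and 0.0691 CPM at 24 h in hy1, and 0.143, 0.19 and 0.156 CPM at 0 h, 0.445, 0.67 and 0.309 CPM at 12 h and 0.122, 0.0746 and 0.191 CPM at 24 h in WT. Of its 1296 exon bases (chr3:21948501-21949796, minus strand, 1 exon), 946 (72.99%) also belong to an exon of GCN2 on the opposite strand, a gene with 986 to 1893 reads per library. The counting used no strand and no option that keeps reads falling on several genes, so reads from the shared bases cannot be assigned. The calls on GUN4, a rise in WT at 12 h against 0 h (1.51 ± 0.53, adjusted p = 0.0245) and a fall in WT at 24 h against 12 h (-1.84 ± 0.54, adjusted p = 0.0457), rest on these few reads. Without the 3 libraries that stood apart they were 1.44 and -2.12 (adjusted p = 0.117 and 0.186). Of the other 30 members, 15 share exon bases with another gene, from 0.78% of HEME1 to 18.74% of YCF54 (AT5G58250), whose partner is NdhN.

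**Figure D2:**
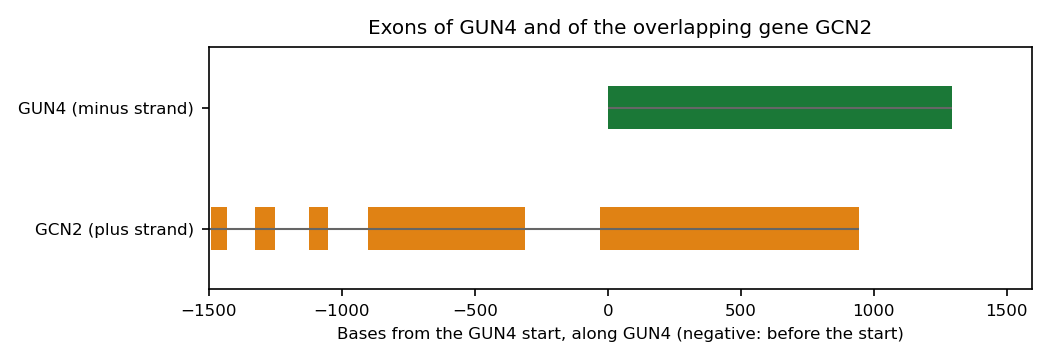
Exons (boxes) of GUN4 and of GCN2 against the distance in bases from the GUN4 start, read along GUN4. The first exon of GCN2 covers most of the single GUN4 exon, and the rest of GCN2 runs on beyond the left edge.

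After the chelatase, CHLM methylates magnesium protoporphyrin, CRD1 (AT3G56940) and YCF54 act in the cyclase that forms the fifth ring, and DVR (AT5G18660) reduces a vinyl group. CRD1 was at 15.2, 11.3 and 9.02 CPM at 0 h, 133, 156 and 181 CPM at 12 h and 184, 222 and 218 CPM at 24 h in hy1, and 32.5, 20.7 and 28.9 CPM at 0 h, 149, 136 and 151 CPM at 12 h and 247, 298 and 269 CPM at 24 h in WT. The genotypes were separate at 0 h and 24 h, with hy1 lower, and overlapped at 12 h. The difference between them was called at 0 h and not at 24 h. CRD1 rose by 3.73 ± 0.20 and 4.14 ± 0.21 in hy1 and 2.41 ± 0.19 and 3.31 ± 0.20 in WT (adjusted p from 6.69e-10 to 5.68e-08). YCF54 averaged 11.8 ± 2.21, 53.2 ± 12.6 and 44.5 ± 5.28 CPM in hy1 and 16.1 ± 2.85, 51.8 ± 2.52 and 64.7 ± 4.93 CPM in WT (SD, n = 3 each). It rose in all 4 light comparisons, by 1.68 to 2.18. DVR was scarce, at 1.44, 1.44 and 0.843 CPM at 0 h, 10.2, 13.5 and 14.9 CPM at 12 h and 5.93, 11.9 and 10 CPM at 24 h in hy1, and 3.45, 2.04 and 2.85 CPM at 0 h, 10.06, 14.3 and 7.56 CPM at 12 h and 14.1, 17.9 and 12.2 CPM at 24 h in WT. Its 0 h libraries did not overlap between genotypes, and it rose by 3.37 ± 0.33 and 2.90 ± 0.32 in hy1 and 1.94 ± 0.30 and 2.4 ± 0.31 in WT (adjusted p from 6.25e-07 to 6.98e-05). CHLM was at 55.8, 54.2 and 43.1 CPM at 0 h, 94.3, 114 and 118 CPM at 12 h and 122, 140.3 and 124 CPM at 24 h in hy1, and 47.6, 42.4 and 46.7 CPM at 0 h, 84.5, 48.3 and 43.05 CPM at 12 h and 116, 144 and 64.6 CPM at 24 h in WT. The libraries that stood apart held the 2 lowest WT values of 12 h and the lowest of 24 h. CHLM rose by 1.09 ± 0.26 (adjusted p = 0.00266) in hy1 at 12 h. In WT it was then 0.36 ± 0.26 (adjusted p = 0.245), or 0.89 without those libraries.

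The 3 genes that finish chlorophyll rose in every light comparison. CHLG (AT3G51820), chlorophyll synthase, attaches the tail, CHLP (AT1G74470) reduces geranylgeranyl to the phytyl of that tail, and CAO (AT1G44446) oxygenates chlorophyllide a to give chlorophyll b. CHLG was at 5.25, 4.44 and 3.37 CPM at 0 h, 60.8, 61.6 and 58.1 CPM at 12 h and 51.2, 58.6 and 50.7 CPM at 24 h in hy1, and 11.2, 8.43 and 8.14 CPM at 0 h, 69.98, 50.3 and 47.4 CPM at 12 h and 73.99, 83.8 and 54.4 CPM at 24 h in WT. All hy1 libraries of 0 h lay below those of WT, and in light the genotypes overlapped. CHLG rose by 3.79 ± 0.21 and 3.62 ± 0.21 in hy1 and by 2.60 ± 0.20 and 2.94 ± 0.20 in WT (adjusted p from 1.99e-09 to 3.72e-08). CAO had 18.6, 22.4 and 21.2 CPM at 0 h, 29.1, 34.2 and 36.5 CPM at 12 h and 63.3, 67.5 and 63.5 CPM at 24 h in hy1, and 17.03, 12.1 and 16.9 CPM at 0 h, 31.97, 35.7 and 27.3 CPM at 12 h and 52.6, 57.4 and 47.4 CPM at 24 h in WT. Its levels stepped up at each time without overlap within a genotype, by 0.96 ± 0.14 in hy1 and 0.73 ± 0.14 in WT between 12 h and 24 h (adjusted p = 0.000639 and 0.00395). CHLP averaged 60.7 ± 18.2, 245 ± 12.03 and 349 ± 30.1 CPM in hy1 and 97.03 ± 32.97, 240.3 ± 45.7 and 384 ± 106 CPM in WT. It rose by 2.52 ± 0.28 in hy1 and 1.99 ± 0.27 in WT at 24 h (adjusted p = 2.97e-06 and 2.09e-05).

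**Figure D3:**
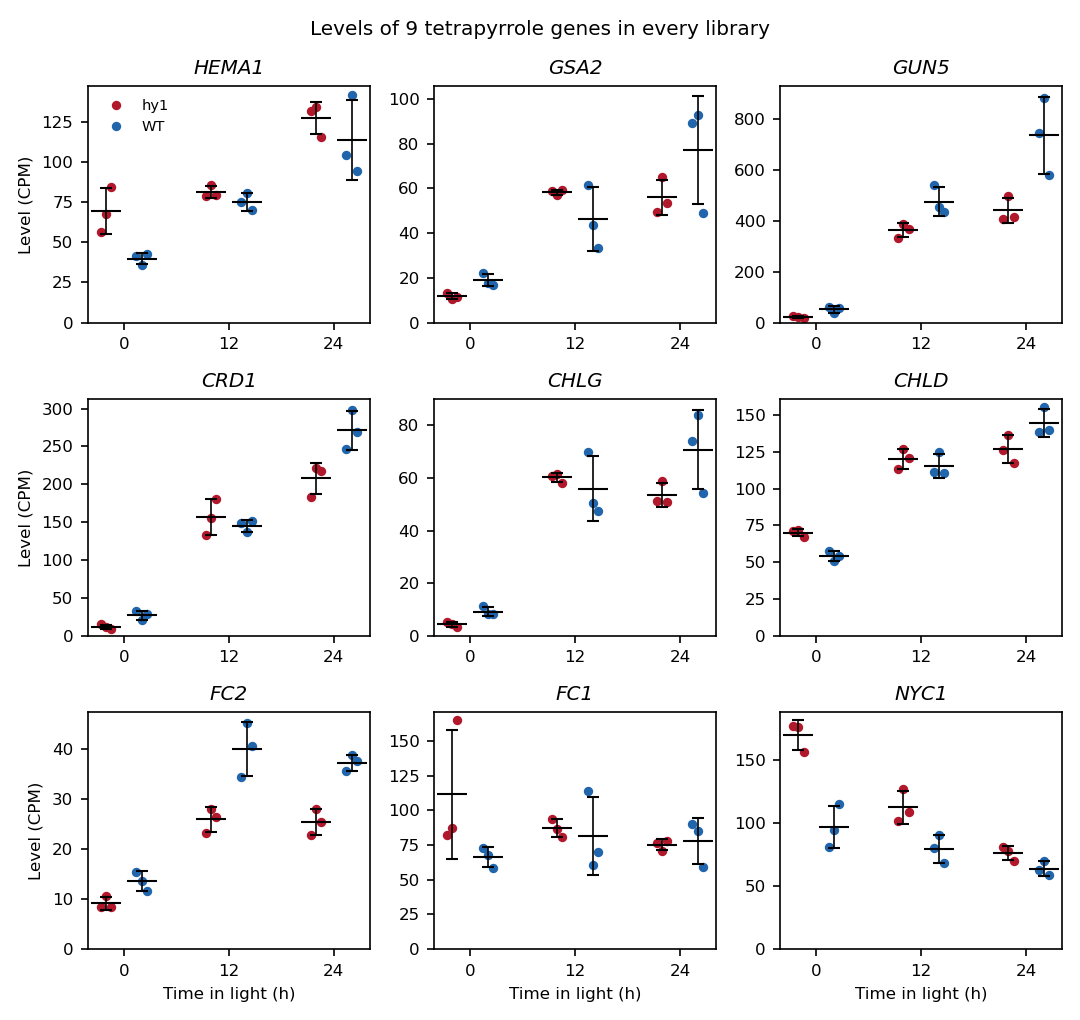
Levels in TMM-scaled CPM (vertical axes, linear from 0) of 9 genes against time in light in h, with 1 point per library, hy1 left of WT, and bars for the mean and SD of 3 libraries. GUN5, CRD1 and CHLG rise steeply from low levels, FC2 is lower in hy1 at each time, and NYC1 falls. FC1 has no steep rise, and its highest libraries are hy1 0 h replicate 3 at 165 CPM and WT 12 h replicate 1 at 114 CPM.

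On the haem side the 2 ferrochelatases parted ways. Both insert iron into protoporphyrin IX, FC2 (AT2G30390) mainly in green tissue and FC1 (AT5G26030) in all tissues. FC2 was at 8.43, 10.6 and 8.36 CPM at 0 h, 23.2, 28.1 and 26.5 CPM at 12 h and 22.8, 28.1 and 25.4 CPM at 24 h in hy1, and 15.5, 13.7 and 11.6 CPM at 0 h, 34.5, 45.2 and 40.6 CPM at 12 h and 35.6, 38.8 and 37.6 CPM at 24 h in WT. At each time every hy1 library lay below every WT library. FC2 rose by 1.51 ± 0.14 and 1.48 ± 0.14 in hy1 and 1.56 ± 0.14 and 1.46 ± 0.14 in WT (adjusted p from 1.77e-07 to 4.99e-07). FC1 was at 82.4, 87.3 and 165 CPM at 0 h, 93.8, 86.5 and 80.8 CPM at 12 h and 76.6, 70.8 and 78.3 CPM at 24 h in hy1, and 72.7, 68.2 and 58.8 CPM at 0 h, 114, 60.6 and 70.2 CPM at 12 h and 90.1, 85.4 and 59.3 CPM at 24 h in WT. A single library, hy1 0 h replicate 3, stood far above the rest. FC1 differed by -0.57 ± 0.26 in hy1 and 0.23 ± 0.25 in WT at 24 h (adjusted p = 0.0897 and 0.477), and no light comparison called it. Without hy1 0 h replicate 1 the hy1 difference at 24 h was -0.75 (adjusted p = 0.0392). Without the 3 libraries that stood apart the WT difference at 12 h was 0.78. UPM1 (AT5G40850), the methyltransferase that opens the sirohaem branch, was among the most abundant members before light, at 179.9 ± 9.06, 252 ± 8.56 and 189 ± 10 CPM in hy1 and 197 ± 25.3, 235 ± 58.9 and 222 ± 25.1 CPM in WT. It rose in hy1 at 12 h (0.48 ± 0.15, adjusted p = 0.0179). In WT it was 0.25 ± 0.15 and 0.18 ± 0.15 at 12 h and 24 h (adjusted p = 0.176 and 0.371). Without the 3 libraries that stood apart it was 0.48 and 0.26.

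FLU (AT3G14110), which holds back glutamyl-tRNA reductase in the dark, rose as well. It averaged 21.2 ± 1.75, 40.1 ± 5.68 and 36.7 ± 2.83 CPM in hy1 at 0 h, 12 h and 24 h and 21.4 ± 1.02, 26.7 ± 5.82 and 35.3 ± 7.04 CPM in WT (SD, n = 3 each). The rise passed the test in hy1 at 12 h (0.92 ± 0.16, adjusted p = 0.000244) and 24 h (0.79 ± 0.16, adjusted p = 0.000992) and in WT at 24 h (0.72 ± 0.16, adjusted p = 0.00157). In WT at 12 h it was 0.32 ± 0.16 (adjusted p = 0.106), or 0.64 without the 3 libraries that stood apart.

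The chlorophyll cycle turns chlorophyll b back into chlorophyll a, with NYC1 (AT4G13250) and NOL (AT5G04900) as the reductases of its first step and HCAR (AT1G04620) at the second. NYC1 is also known for its role in leaf yellowing. NYC1 was at 177, 177 and 157 CPM at 0 h, 102, 127 and 109 CPM at 12 h and 81.2, 78.2 and 69.97 CPM at 24 h in hy1, and 81.3, 94.9 and 115 CPM at 0 h, 80.3, 90.6 and 68.2 CPM at 12 h and 63.1, 70.1 and 58.6 CPM at 24 h in WT. It had the lowest log2 difference of the called members in light against 0 h, and all hy1 libraries lay above all WT libraries at 0 h and at 12 h. NYC1 fell in hy1 at 12 h (-0.60 ± 0.14, adjusted p = 0.00222) and 24 h (-1.16 ± 0.14, adjusted p = 6.37e-06). In WT it was -0.28 ± 0.14 (adjusted p = 0.0905) at 12 h and fell at 24 h (-0.60 ± 0.14, adjusted p = 0.00183). NOL was at 7.58, 8.43 and 6.84 CPM at 0 h, 7.89, 9.32 and 8.16 CPM at 12 h and 6.93, 10.8 and 8.39 CPM at 24 h in hy1, and 6.04, 5.34 and 5.61 CPM at 0 h, 7.26, 7.66 and 8.51 CPM at 12 h and 9.85, 9.45 and 9.17 CPM at 24 h in WT. Only the 0 h libraries kept the genotypes apart for NOL. It rose in WT at 12 h and 24 h (0.46 ± 0.14 and 0.74 ± 0.14, adjusted p = 0.0137 and 0.000513), while in hy1 it was 0.15 ± 0.14 and 0.19 ± 0.14 (adjusted p = 0.426 and 0.317). The 12 h call on NOL in WT was lost without WT 0 h replicate 2, without WT 12 h replicate 3 and in the fit that left out all 3 outlying libraries (0.36, adjusted p = 0.156). HCAR averaged 9.03 ± 1.41, 12.8 ± 2.26 and 9.405 ± 1.51 CPM in hy1 and 8.54 ± 0.525, 14.7 ± 4.31 and 13.7 ± 3.44 CPM in WT. It rose in WT at 12 h and 24 h (0.79 ± 0.22 and 0.68 ± 0.22, adjusted p = 0.00692 and 0.017), while in hy1 it was 0.51 ± 0.22 and 0.06 ± 0.22 (adjusted p = 0.0713 and 0.859). Without the 3 libraries the WT difference of HCAR at 12 h was 1.20, and its 24 h call in WT was lost in 4 of 17 alternatives. The tests of the difference between genotypes in these changes are given below.

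Per kilobase of exon, on which scale genes can be set side by side, the order of the members turned over in light. At 0 h the highest in hy1 were NYC1 (82.4 ± 5.65 CPM per kb, SD, n = 3), UPM1 (66.1 ± 3.33) and FC1 (54.2 ± 22.5), and in WT UPM1 (72.4 ± 9.303), NYC1 (46.97 ± 8.22) and CHLP (46.5 ± 15.8). In hy1 the SD of FC1 spanned UPM1, and in WT those of NYC1 and CHLP spanned each other. At 24 h the order was led in hy1 by CHLP (167 ± 14.4), CRD1 (139 ± 14.1) and GUN5 (92.9 ± 10.4), and in WT by CHLP (184 ± 50.8), CRD1 (182 ± 17.1) and GUN5 (155 ± 31.7). In WT, CRD1 and GUN5 lay within 1 SD of CHLP. GUN4 was last in each group, and among the other genes HEMD, CHLI2 and DVR were the lowest at 0 h, at 2.08 ± 0.327, 1.28 ± 0.377 and 0.782 ± 0.218 CPM per kb in hy1 and 3.04 ± 0.328, 2.22 ± 0.711 and 1.75 ± 0.444 in WT.

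Before light, hy1 differed from WT in both directions. At 0 h, 7 of 31 members were higher and 8 were lower in hy1, beside 12.2% and 12.4% of all genes (24.6% in all), and the median difference was -0.06. Of the 8 lower ones, 6 lay in the chlorophyll branch: GUN5 (-1.22 ± 0.20, adjusted p = 0.000407), CRD1 (-1.21 ± 0.19, adjusted p = 0.000284), DVR (-1.16 ± 0.33, adjusted p = 0.0169), CHLG (-1.08 ± 0.20, adjusted p = 0.000965), CHLI1 and CHLI2 (-0.82 and -0.79). GSA2 (-0.69) and FC2 (-0.57 ± 0.14, adjusted p = 0.00666) were also lower. Higher in hy1 were NYC1 (0.81 ± 0.14, adjusted p = 0.000546), HEMA1 (0.80 ± 0.15, adjusted p = 0.00141), FC1 (0.75), HEMA2 (0.60 ± 0.13, adjusted p = 0.00415), CAO (0.44), NOL (0.43) and CHLD (0.37). CAO and CHLD belong to the chlorophyll branch too, which thus moved in both directions. Of its 9 magnesium genes 5 were lower and 1 was higher. Of the 3 that finish chlorophyll, 1 was lower and 1 was higher. The 8 trunk genes, with a median difference of -0.06, were not among the called ones. Of the 10 photosystem genes, 7 were lower in hy1 at this time and none higher. The call count was 9 without hy1 0 h replicate 3 or without WT 0 h replicate 1. FC1 was 0.75 with all libraries (adjusted p = 0.0445) and 0.35 (adjusted p = 0.303) without hy1 0 h replicate 3, and the adjusted p was 0.078, 0.0998 and 0.13 without WT 0 h replicates 1, 2 and 3. In fits without a single 0 h library, GSA2 stayed called only without WT 0 h replicate 3 (adjusted p up to 0.132 in the others). NOL stayed called only without hy1 0 h replicate 3 (adjusted p up to 0.176 in the others). CHLI1, CHLI2, DVR, CAO and CHLD each lost the call in at least 1 such fit. HEMA1, HEMA2, GUN5, CRD1, CHLG, FC2 and NYC1 were called under every alternative.

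At 12 h few members were called between the genotypes. Here 3 of 31 were higher in hy1 and 1 was lower, beside 14.9% and 17.8% of all genes (32.7% in all), with a median difference of 0.10. CHLM (0.90 ± 0.26, adjusted p = 0.016), FLU (0.59 ± 0.16, adjusted p = 0.0127) and NYC1 (0.50 ± 0.14, adjusted p = 0.0127) were higher, and FC2 was lower (-0.63 ± 0.13, adjusted p = 0.0032). None of these 4 calls held without the libraries that stood apart, which leaves 1 WT library at 12 h, assumed to vary like the other groups. CHLM was then 0.37, FLU 0.26, NYC1 0.49 and FC2 -0.41 (adjusted p = 0.133, 0.217, 0.0542 and 0.09), and HCAR was called lower (-0.61, adjusted p = 0.0348). The count was 11 without WT 12 h replicate 1, 2 without replicate 2 and 1 without replicate 3 of that group. Of all genes, 52.2%, 21.1% and 19.1% were then called.

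At 24 h all called members were lower in hy1. These were 7 of 31, beside 10.2% of all genes lower and 10.5% higher (20.6% in all), with a median difference of -0.26. FC2 (-0.55 ± 0.13, adjusted p = 0.00932) and HEMC (-0.54 ± 0.12, adjusted p = 0.005) were called under every alternative. The others were HEMB1 (-0.36 ± 0.08, adjusted p = 0.00394), PPO1 (-0.36 ± 0.09, adjusted p = 0.0102), GUN5 (-0.74 ± 0.20, adjusted p = 0.0149), CHLI1 (-0.72 ± 0.21, adjusted p = 0.0238) and YCF54 (-0.54 ± 0.17, adjusted p = 0.0362). Without the 3 libraries that stood apart 16 members were lower in hy1, these 7 among them, beside 33.6% of all genes called in either direction. The 9 added were GSA1, GSA2, HEME2, LIN2, CHLI2, DVR, CHLG, UPM1 and HCAR, from -0.32 for UPM1 to -0.78 for DVR. WT 24 h replicate 3, left out there, was below the mean of the other WT libraries of 24 h in 25 of 31 members. Leaving it out thus raised the WT mean of those 25. The count was 4 without hy1 24 h replicate 1, hy1 24 h replicate 3 or WT 24 h replicate 2. CHLI1, GUN5 and FC2 were lower in hy1 both at 0 h and at 24 h, and FC2 at 12 h as well.

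**Figure D4:**
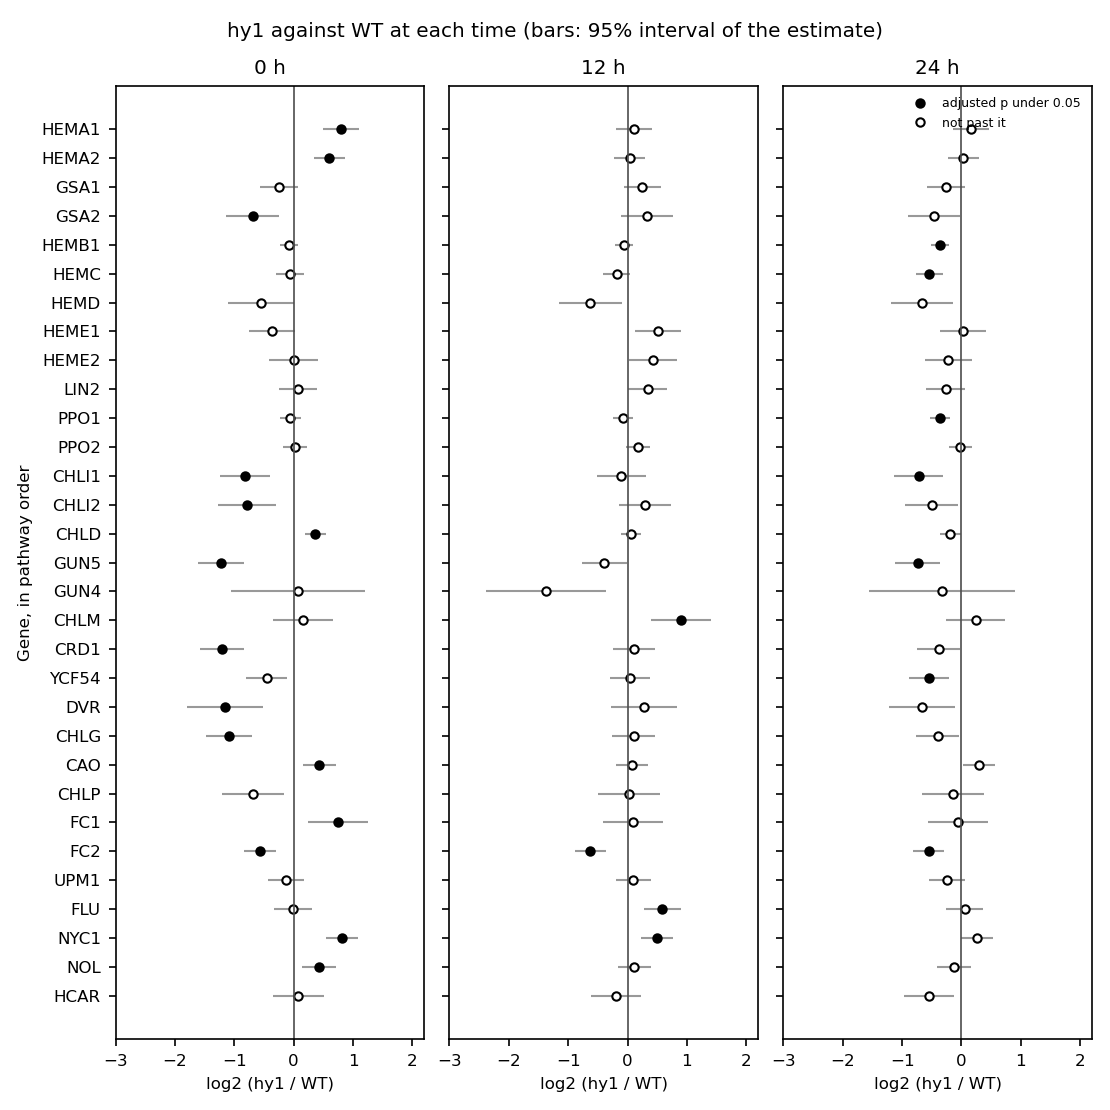
Log2 of hy1 over WT for each of the 31 genes (rows) at 0 h, 12 h and 24 h, with the 95% interval of the estimate as a bar and filled points where the adjusted p was under 0.05. Points scatter to both sides at 0 h and lie mostly left of 0 at 24 h, and the 4 filled points of 12 h are CHLM, FLU and NYC1 on the right and FC2 on the left.

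Whether the light response itself differed between the genotypes was tested as an interaction, the log2 change in hy1 minus that in WT. At 12 h it was above 0 for 6 members and below 0 for 1, beside 6.73% and 6.8% of all genes (13.5% in all). DVR (1.44 ± 0.43), CRD1 (1.32 ± 0.26), CHLG (1.19 ± 0.27), CHLI2 (1.08 ± 0.34), GSA2 (1.02 ± 0.32) and HEME1 (0.88 ± 0.28) rose more in hy1 (adjusted p = 0.0397, 0.00464, 0.0105, 0.0455, 0.0468 and 0.0499). Of these, DVR, CRD1, CHLG, CHLI2 and GSA2 were the lower ones in hy1 at 0 h, and none of the 6 was called between the genotypes at 12 h. The change of HEMA1 was smaller in hy1 (-0.69 ± 0.22, adjusted p = 0.0465), from a higher level at 0 h. The interactions share the 0 h libraries with the comparison of genotypes at 0 h. At 24 h CHLD alone was called (-0.56 ± 0.13, adjusted p = 0.0115), below 0, where 3.49% of all genes were below and 5.18% above (8.67% in all). The 12 h call on CRD1 was the one kept under every alternative. Without the 3 libraries that stood apart the 12 h values were 1.52 for DVR, 1.28 for CRD1, 0.87 for CHLG and 0.65 for HEME1, all still called, and 0.90 for CHLI2, 0.61 for GSA2 and -0.68 for HEMA1, which were not (adjusted p = 0.0908, 0.052 and 0.0656). CHLI1 was then 1.15 and FC1 -1.13. At 12 h that fit has 1 WT library, so these 12 h values rest on it. At 24 h 8 members were then called, all below 0, beside 16.5% of all genes in either direction: HEMA1, HEMC, LIN2, PPO1, CHLD, FC1, NYC1 and HCAR, from -0.33 for PPO1 to -0.97 for FC1. For NYC1, NOL and HCAR the 24 h interactions with all libraries were -0.55, -0.55 and -0.63 (adjusted p = 0.0974, 0.116 and 0.264). The 12 h count was 14 without WT 12 h replicate 1, beside 40.6% of all genes. Without any other library of the 0 h and 12 h groups but hy1 0 h replicate 1 it was 2 to 4. The share of all genes was then 7.84% to 10.3%.

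For some of the steps with 2 genes, the ratio of the copies at 0 h did not overlap that in light. The copies of a pair share no 50-base stretch of transcript, so their reads can be told apart. Ratios are of CPM per kb, as mean ± SD of 3 libraries, and were not tested. HEMA1 over HEMA2 was 1.58 ± 0.0993, 2.8 ± 0.0296 and 4.04 ± 0.13 in hy1 at 0 h, 12 h and 24 h and 1.38 ± 0.123, 2.69 ± 0.383 and 3.73 ± 0.915 in WT. GSA2 over GSA1 was 0.182 ± 0.0117, 0.651 ± 0.0618 and 0.638 ± 0.0571 in hy1 and 0.248 ± 0.0198, 0.612 ± 0.116 and 0.721 ± 0.0798 in WT. Within each genotype, no library of 12 h or 24 h overlapped one of 0 h in these pairs, nor in the FC2 and NYC1 pairs below. The same held for PPO1 over PPO2 in WT. FC2 over FC1 was 0.0932 ± 0.0373, 0.306 ± 0.0463 and 0.346 ± 0.0526 in hy1 and 0.207 ± 0.00868, 0.553 ± 0.228 and 0.504 ± 0.127 in WT, with hy1 the lower at 0 h without overlap. NYC1 over NOL moved the other way, at 15.2 ± 0.878, 9.01 ± 0.251 and 6.17 ± 1.57 in hy1 and 11.7 ± 2.41, 6.98 ± 1.37 and 4.57 ± 0.4 in WT. CHLI1 over CHLI2 was 6.22 ± 2.04, 7.3 ± 0.786 and 7.6 ± 0.318 in hy1 and 6.09 ± 0.256, 9.96 ± 3.25 and 9.42 ± 3.54 in WT, where the libraries that stood apart gave the 3 highest ratios. PPO1 over PPO2 was 3.39 ± 0.322, 3.71 ± 0.148 and 3.87 ± 0.23 in hy1 and 3.57 ± 0.189, 4.46 ± 0.735 and 4.93 ± 0.399 in WT. HEME2 over HEME1 was 1.93 ± 0.239, 2.03 ± 0.0596 and 1.97 ± 0.0709 in hy1 and 1.49 ± 0.0558, 2.15 ± 0.179 and 2.33 ± 0.00359 in WT, where no library in light overlapped one of 0 h.

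**Figure D5:**
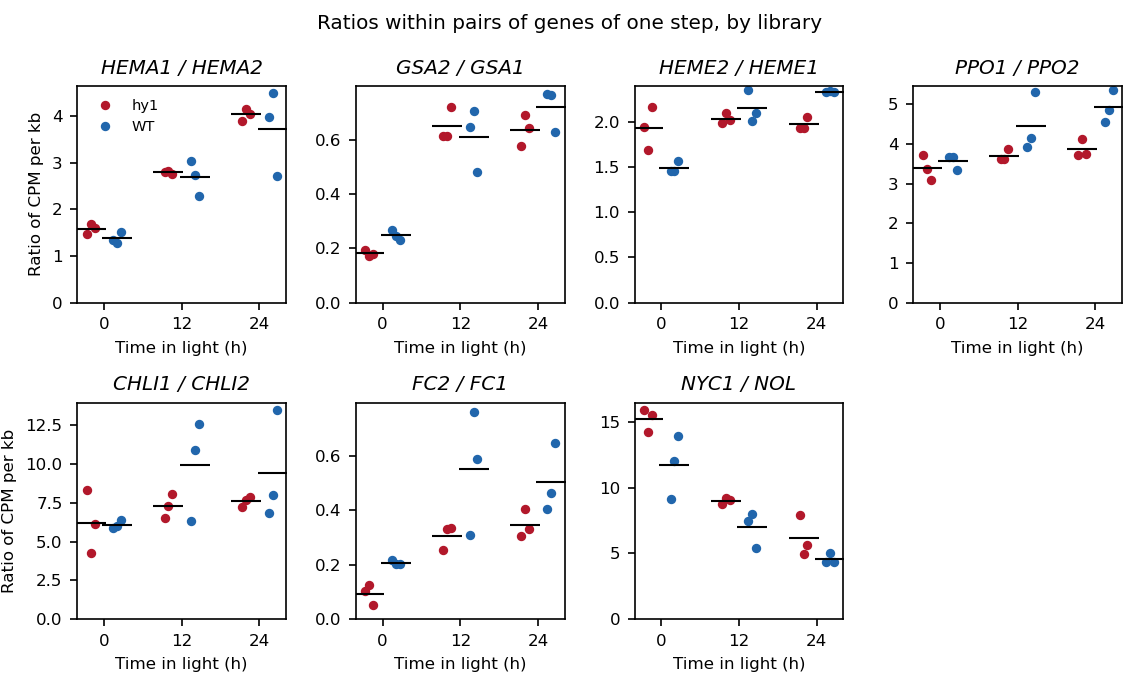
Ratio of CPM per kb between the 2 genes of a step (vertical axes, linear from 0) against time in light in h, with 1 point per library, hy1 left of WT, and a line at the mean of 3. The ratios of HEMA1 to HEMA2, GSA2 to GSA1 and FC2 to FC1 are higher in light than at 0 h in both genotypes, and that of NYC1 to NOL is lower.

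A further 27 genes of the pathway and around it, of which 24 had enough reads, were set beside the members. They include the protochlorophyllide reductases PORA, PORB and PORC, the haem oxygenases HY1, HO2, HO3 and HO4, and HY2. HEMA3, HEMB2, HEMF2, HEMN and SIRB are also among them. The rest feed or assist the pathway or break down its products. HY1, the gene defective in hy1, is thus part of the counts that follow. In hy1, 16 rose and 2 fell at 12 h, beside 22.9% and 21.3% of all genes, and 14 rose and 3 fell at 24 h, beside 20.4% and 20.1%. In WT 14 rose and 4 fell at 12 h, beside 28.3% and 25.3% of all genes, and 15 rose and 2 fell at 24 h, beside 24.6% and 23.1%. The smallest adjusted p belonged each time to SGRL, a STAY-GREEN-like magnesium dechelatase, which rose by 2.4 ± 0.12 and 2.33 ± 0.12 in hy1 and 2.32 ± 0.12 and 2.57 ± 0.12 in WT (adjusted p from 2.74e-10 to 1.12e-09). NTRC, a plastid thioredoxin reductase that acts on enzymes of the path, rose by 1.18 ± 0.09 in hy1 and 1.57 ± 0.09 in WT at 24 h. LIL3:1, a light-harvesting-like protein that anchors geranylgeranyl reductase, rose by 3.84 ± 0.25 in hy1 and 2.19 ± 0.24 in WT at 12 h, and GBP, the binding protein of glutamyl-tRNA reductase, by 1.54 ± 0.13 in hy1 and 1.59 ± 0.13 in WT at 24 h. In hy1 against WT, 2 were higher and 3 lower at 0 h, 3 higher and 2 lower at 12 h, and 1 higher and 2 lower at 24 h, beside 24.6%, 32.7% and 20.6% of all genes called in either direction. The smallest adjusted p at 0 h belonged to LIL3:1 (-1.20 ± 0.24), SGR1 (0.87 ± 0.20) and PAO (0.50 ± 0.14), with adjusted p = 0.00213, 0.00509 and 0.019. SGR1 is a magnesium dechelatase and PAO opens the ring of pheophorbide, both in chlorophyll breakdown. At 12 h they were SGR1 (1.23 ± 0.20), the chlorophyllase CLH2 (-1.89 ± 0.37) and the pheophytinase PPH (0.78 ± 0.18), with adjusted p = 0.000531, 0.00171 and 0.00508. At 24 h, after HY1, they were SGR1 (0.83 ± 0.20) and NTRC (-0.30 ± 0.09), with adjusted p = 0.00863 and 0.0232. The interaction was above 0 for 3 and below 0 for 1 at 12 h, beside 13.5% of all genes in either direction, led by LIL3:1 (1.64 ± 0.33), HEMF2 (1.09 ± 0.28) and CLH2 (-2.19 ± 0.57), with adjusted p = 0.00495, 0.0192 and 0.021. At 24 h it was called for HY1 (-0.66 ± 0.18, adjusted p = 0.0358) and LIL3:2 (1.06 ± 0.32, adjusted p = 0.048), beside 8.67% of all genes. Between 12 h and 24 h the smallest adjusted p in hy1 was that of NTRC (-0.19 ± 0.09, adjusted p = 0.294). In WT, OVA3 (0.39 ± 0.09, adjusted p = 0.0146) and HY1 (0.50 ± 0.13, adjusted p = 0.0255) rose and SGR2 fell (-0.76 ± 0.21, adjusted p = 0.0354).

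The same genes were fitted without the 3 WT libraries that stood apart, which leaves 1 WT library at 12 h. This alternative was chosen after seeing the data. In WT 13 then rose and 2 fell at 12 h and 16 rose and 3 fell at 24 h, beside 47.4% and 58.2% of all genes called in either direction. Between 12 h and 24 h in WT, where 4.47% of all genes were called, OVA3 was at 0.32, HY1 at 0.30 and SGR2 at -0.82, no longer past the threshold (adjusted p = 0.094, 0.209 and 0.115). In hy1 against WT at 12 h, SGR1 (0.87, adjusted p = 0.0164) and PPH (0.30, adjusted p = 0.0478) were higher and HY1 was lower, while CLH2 was -1.11 (adjusted p = 0.0528), beside 18.9% of all genes. At 24 h 3 were higher in hy1 and 7 lower, beside 33.6% of all genes, the 3 called with all libraries among them. SGR1 was then 0.71 and NTRC -0.31 (adjusted p = 0.00563 and 0.0128). In the 12 h interaction LIL3:1 was 1.26 (adjusted p = 0.0142), while HEMF2 was 0.69 and CLH2 -1.40 (adjusted p = 0.0733 and 0.0929). The 24 h calls on HY1 (-0.75) and LIL3:2 (0.92) held (adjusted p = 0.000539 and 0.0425), and OVA3 and NTRC were called below 0 in addition, beside 16.5% of all genes.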

How the data were processed

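The authors counted reads per gene with featureCounts 2.0.3 on TAIR10 gene models, per the file headers, with no strand option and no option for multi-mapping or overlapping genes. The authors also deposited an FPKM table, whose values were 10.0 times the FPKM computed here from the counts, and an exon length in bases per gene (the other measure in the count file). The submitters' processing notes also name STAR 2.7.8a, StringTie 2.1.3 and HTSeq, with roles not given in the sources used here. Of counts of 1 to 10, 75.2% were even, so mates appear to have been counted separately and counting error is larger than the reads alone give. RNA was extracted with TRIzol and poly-A libraries were made with a TruSeq kit, per the labels.

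Genotypes and times were taken from the sample descriptions. The deposited counts of all 18 libraries were fitted in edgeR 4.0.16 (R 4.3.3) as 6 group means with TMM factors (0.9707 to 1.07), after filterByExpr, by the quasi-likelihood test with Benjamini-Hochberg adjustment over 20955 genes and a threshold of 0.05. A value after ± beside a log2 difference is its standard error. The 11 comparisons are 12 h and 24 h against 0 h and 24 h against 12 h in each genotype, hy1 against WT at 0 h, 12 h and 24 h, plus both interactions. The fit was tested on simulated counts. Whether replicates are separate cultures is not given in the labels, and p-values cover only how these samples vary, which may be technical.

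Every member is named in pathway order. Levels in each library are given for the members with the largest called rise or fall of a comparison, those called in an interaction and the genes of 7 pairs, and other pathway genes by the 3 smallest adjusted p. The members and lists were chosen with earlier results of these data known. Promoters and overlaps come from RefSeq TAIR10.1: 32536 of 32833 genes were found there by locus, and in 99.95% of these, all 31 members included, both ends were identical. Alternatives were DESeq2 1.42.0, limma 3.58.1 on log2(FPKM + 1) and log2(FPKM + 0.1), other scaling and filters, and a threshold of 0.01. Others were fits of the groups compared alone, a replicate block, and fits without each library or without the 3 that stood apart. These 3 were picked from these same data, and for the other pathway genes that fit was added after seeing the data.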

Additional observations from a re-analysis of the deposited data

Results flagged for a closer look

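The tests of the difference in light response between hy1 and WT, given as the log2 change in hy1 minus that in WT, passed the threshold for 7 members at 12 h. Of all genes, 6.73% passed above 0 and 6.8% below (13.5% in all). HEMA1 had -0.69, GSA2 1.02, HEME1 0.88, CHLI2 1.08, CRD1 1.32, DVR 1.44 and CHLG 1.19. At 24 h CHLD alone passed, at -0.56, beside 8.67% of all genes. Of the photosystem list, 5 of 10 genes had a 12 h interaction above 0 and none below, beside 6.73% and 6.8% of all genes. Its part in the members' values was not tested. The members' own 0 h levels enter both the interaction and the 0 h comparison of genotypes.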

How the results depend on the processing

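Of 6027 values recomputed for single members, 247 lost the call, 128 gained one with the same sign, 1 gained one with the other sign and the rest kept their side of the threshold. None of the 2458 of called values took the other sign, and 182 of the 3569 of values not called did, as for HEMA2, FC1 and HEMD in WT. The 1 then called was GSA1 in WT at 12 h against 0 h, -0.01 with all libraries and 0.32 without the 3 that stood apart. The counts of members called at 12 h and 24 h against 0 h stayed within 1.5 times under every alternative: without single libraries they were 24 to 26 at both times in hy1, and 21 to 24 and 25 to 27 in WT. The other counts moved, as did the share of all genes called, and the cause was not tested. Without single libraries that share was 4.41% to 39.0% for WT at 24 h against 12 h. It was 19.1% to 52.2% for hy1 against WT at 12 h and 7.84% to 40.6% for the 12 h interaction. For WT at 24 h against 12 h, 7 calls became 2 at a threshold of 0.01, 0 when the groups compared were fitted alone, 1 without the 3 libraries, 11 with DESeq2 and 2 to 18 without single libraries. For hy1 at 24 h against 12 h, 3 became 1 at 0.01, 6 with the groups alone and 1 to 2 without single libraries. For hy1 against WT at 0 h, 15 became 8 at 0.01 and 9 to 13 without single libraries. At 12 h, 4 became 1 at 0.01, 1 with the groups alone, 1 without the 3 libraries, 8 and 7 with limma at pseudocounts of 1 and 0.1, and 1 to 11 without single libraries. At 24 h, 7 became 3 at 0.01, 16 without the 3 libraries and 4 to 7 without single libraries. The 12 h interaction had 7 calls, 4 with no filter, 1 at 0.01 and 2 to 14 without single libraries. The 24 h interaction had 1 call, 2 with upper-quartile factors, 0 at 0.01, 8 without the 3 libraries, 3 with DESeq2 and 1 to 3 without single libraries, that is 3 without hy1 0 h replicate 1 and 2 without hy1 24 h replicate 2, WT 0 h replicates 2 and 3 or WT 24 h replicate 1. Deviations from the group means gave no clear answer on whether replicate numbers pair the samples. Over 45 same-numbered pairs of libraries their median correlation was 0.0192, the highest was 0.5837 and 6 were over 0.1. Over 90 other-numbered pairs the median was -0.0084, the highest 0.5185 and 6 were over 0.1. With the replicate block, calls at 12 h and 24 h against 0 h and 24 h against 12 h were 27, 26 and 3 in hy1 and 22, 27 and 7 in WT, those of hy1 against WT 14, 5 and 7 at 0 h, 12 h and 24 h, and those of the interactions 6 and 1. Reads limit GUN4 most, and DVR and CHLI2 at 0 h after it.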

Other observations

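Several members lie near genes of the haem oxygenase family. HEMA1 and HO4 are 1355 bases apart with no gene between them, HEMD and HO2 786 bases apart with none, and HEMB1 and HO3 3039 bases apart with 1 gene between them, each pair on the same strand (TAIR10.1). HO3 had no reads in any library. HO2 averaged 6.24, 12.7 and 12.3 CPM in hy1 and 6.65, 12.97 and 13.03 CPM in WT at 0 h, 12 h and 24 h.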
